A study of Mus musculus with 8 samples.

Results

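The collagen genes are described here without Col4a1 and Col4a2, the pair that codes for the common type IV chains of basement membrane. Members were the array symbols written as Col, a number, a and a number, and for each gene the brightest of its probe sets, by the average of all 8 arrays, was used. This gave 40 collagen genes out of 18193 genes with a single symbol, and 42 with Col4a1 and Col4a2 counted. Collagens are secreted as trimers of alpha chains. The chains are hydroxylated and folded in the endoplasmic reticulum, trimmed and crosslinked outside the cell, and built into fibrils, networks or beaded filaments according to their class. Fibrillar collagens are the bulk products of fibroblasts and other mesenchymal cells, while pancreatic islets are bounded by a thinner matrix rich in basement membrane and type VI collagen.

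RNA was profiled on Affymetrix mouse genome expression arrays in 4 groups of 2 independent cultures each. WT mESCs were TC-1 mouse embryonic stem cells, and menin-null mESCs were the Men1-ko line 3.2N. Each genotype was represented by 1 line of the 129S6/SvEvTac background. Pancreatic islet-like endocrine cells (PILECs) were derived from the same lines through embryoid bodies, an expansion step and a last step with nicotinamide. The mESCs had been kept on irradiated feeder cells and then freed of them by short rounds of plating. Values are deposited log2 signals, a difference is a difference of group means on that scale, and a call is an adjusted p under 0.05 by limma over all 18193 genes. Each genotype being 1 line, the p-values weigh a difference only against the spread of its cultures. An exact permutation test of 2 arrays against 2 cannot go below 0.333 and was not used.

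The labels were checked first. Men1 was lower in menin-null cells by 2.14 in mESCs and by 2.0 in PILECs on the log2 scale, with means of 9.94 and 7.79 in WT and menin-null mESCs and of 9.99 and 7.99 in the PILECs. All 10 pluripotency markers fell on differentiation in both genotypes. Of the 17 islet markers measured, 8 rose and 3 fell in WT PILECs, and 10 rose and 1 fell in menin-null PILECs. Chgb, a granule protein of endocrine cells, rose by 5.60 in WT cells, whereas Pdx1, Gcg and Iapp had means under 7 in all 4 groups. Of the 17 fibroblast and mesenchyme markers, 13 rose and 2 fell in both genotypes. Many genes were called on differentiation. Over all 18193 genes 27.8% rose and 35.3% fell in WT cells, and 28.9% rose and 36.1% fell in menin-null cells. These are bulk samples, so fewer cells of a type and less RNA per cell cannot be told apart.

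A group mean of 7 or more, a limit set here with no detection calls at hand, was reached by 28 of the 40 collagen genes in at least 1 group. The other 12 stayed under 7 in every group. In mESCs of either genotype 10 members had a mean of 7 or more, against 26 in WT PILECs and 22 in menin-null PILECs. The median of the 40 group means was 6.40 in WT mESCs, 6.33 in menin-null mESCs, 7.53 in WT PILECs and 7.39 in menin-null PILECs. The summed linear signal of the 40 genes lay between 7287 and 7903 over the 4 mESC arrays and between 26790 and 36140 over the 4 PILEC arrays. Such sums, here and for the marker lists below, are weighted to the brightest probe sets. Among the members these were Col18a1 in WT mESCs (mean 11.79) and Col3a1 in WT PILECs (13.48).

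**Figure D1:**
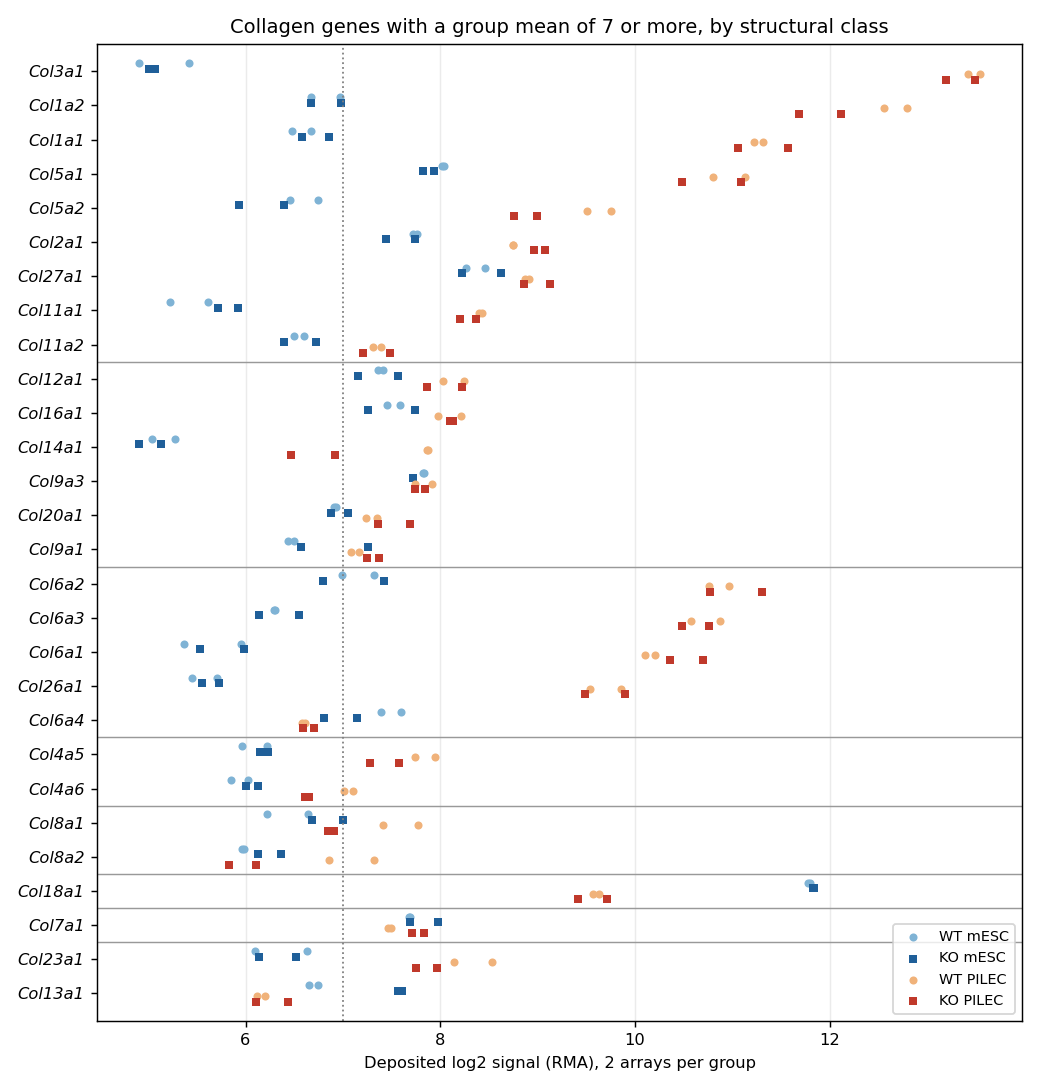
Deposited log2 signal (x axis) of the 28 collagen genes with a group mean of 7 or more, with 1 point per array and 2 arrays per group. Lines part the structural classes in the order fibrillar, FACIT, type VI and related, type IV, VIII, XVIII, VII and transmembrane, and the dotted line marks 7. Levels of different genes come from different probe sets and are not comparable with each other.

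Promoter sequence is shown for 7 members whose RNA the results below turn on. Col3a1 and Col1a2 had the largest rises on differentiation. Col8a2, Col4a6, Col13a1 and Col5a3 were called between genotypes, as was Col1a2, and Col4a5 is the neighbour of Col4a6. Other genes that rose strongly are not printed. The windows are RefSeq sequence of GRCm38.p6, read 5′ to 3′ on the strand of the gene, and hold the 150 bases just before the annotated start. Capitals mark CCAAT or TATAAA, each searched on both strands. Col1a2, Col3a1, Col8a2 and Col4a5 lie on the + strand at chr6:4505468-4505617, chr1:45311388-45311537, chr4:126286644-126286793 and chrX:141475269-141475418. Col4a6, Col13a1 and Col5a3 lie on the - strand at chrX:141474077-141474226, chr10:61979109-61979258 and chr9:20815068-20815217.
Col1a2: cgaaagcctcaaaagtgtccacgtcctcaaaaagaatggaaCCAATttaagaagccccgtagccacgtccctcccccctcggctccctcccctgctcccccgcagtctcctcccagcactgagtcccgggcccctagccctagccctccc
Col3a1: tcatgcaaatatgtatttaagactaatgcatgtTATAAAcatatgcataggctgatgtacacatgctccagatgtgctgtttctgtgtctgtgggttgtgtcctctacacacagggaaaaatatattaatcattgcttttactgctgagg
Col8a2: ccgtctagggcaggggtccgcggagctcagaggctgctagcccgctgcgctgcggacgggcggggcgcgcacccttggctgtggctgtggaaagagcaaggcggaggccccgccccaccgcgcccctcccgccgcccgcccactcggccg
Col4a5: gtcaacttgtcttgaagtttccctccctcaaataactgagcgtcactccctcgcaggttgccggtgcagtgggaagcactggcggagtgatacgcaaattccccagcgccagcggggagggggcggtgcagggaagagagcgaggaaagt
Col4a6: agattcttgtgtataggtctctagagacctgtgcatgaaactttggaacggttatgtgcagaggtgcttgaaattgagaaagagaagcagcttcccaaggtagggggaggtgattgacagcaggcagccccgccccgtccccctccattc
Col13a1: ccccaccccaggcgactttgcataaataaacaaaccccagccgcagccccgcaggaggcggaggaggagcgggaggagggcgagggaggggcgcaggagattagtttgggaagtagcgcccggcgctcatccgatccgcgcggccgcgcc
Col5a3: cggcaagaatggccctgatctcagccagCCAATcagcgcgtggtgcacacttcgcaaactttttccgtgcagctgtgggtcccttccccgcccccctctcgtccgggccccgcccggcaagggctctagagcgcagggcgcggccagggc

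CCAAT stood 109 bases before the start in Col1a2 and 122 bases before it in Col5a3, and TATAAA stood 117 bases before the start in Col3a1. The printed stretches of Col8a2, Col4a5, Col4a6 and Col13a1 held neither set of letters. Over the 250 bases before the start Col4a5 held CCAAT and Col13a1 held TATAAA, while Col8a2 and Col4a6 held neither. Col6a1, Col6a2 and Col6a3, which also rose strongly and are not printed, held neither in the 250 bases before the start. Over the full 250 bases before the start, CCAAT was present in 11 of 34 windows of 31 members (32.4%) and in 33.8% of all 32851 RefSeq windows. TATAAA was present in 14.7% of the member windows and in 12.4% of all windows. These matches are descriptions of letters. Col1a1, Col14a1, Col5a2 and Col26a1 had no window in the table. Some members are neighbours. In the RefSeq gene order no protein-coding gene lies between Col3a1 and Col5a2, between Col6a1 and Col6a2, or between Col4a5 and Col4a6, and the last pair start 1343 bases apart and are read in opposite directions.

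The comparison of PILECs with mESCs asks how the collagen genes moved on differentiation, and was made within each genotype. In WT cells 25 of the 40 members rose and 5 fell. Over all genes 63.1% were called, 27.8% higher and 35.3% lower in PILECs. In menin-null cells 22 members rose and 4 fell, against 65% of all genes called, 28.9% higher and 36.1% lower. The members' median difference was 0.62 in WT and 0.56 in menin-null cells, against -0.08 and -0.07 over all genes. The 22 members that rose in menin-null cells had all risen in WT cells. Col8a1, Col8a2 and Col9a1 were called higher in WT PILECs alone, and of their differences between genotypes that of Col8a2 passed the test given further on.

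Of the 11 fibrillar chain genes 9 rose in both genotypes. Col3a1, the type III chain found with type I in soft connective tissue, read 4.91 and 5.42 in WT mESCs, 5.07 and 5.01 in menin-null mESCs, 13.42 and 13.55 in WT PILECs, and 13.49 and 13.19 in menin-null PILECs. Every PILEC array was far above every mESC array. Arrays that do not overlap are common over all genes. In WT cells 36.4% of genes had both PILEC arrays above both mESC arrays and 47.2% below. In menin-null cells these shares were 35.4% and 43.6%. The rise of Col3a1 was 8.32 (SE 0.17) in WT and 8.30 (SE 0.17) in menin-null cells, and the mESC level was under 7. The fold was 319 in WT and 316 in menin-null cells on this probe set, the brightest. It was 104 and 71.1 on the other, which rose by 6.69 and 6.15 from mESC means of 4.61.

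Col1a1 and Col1a2 code for the chains of type I collagen. Col1a1 read 6.48 and 6.68 in WT mESCs, 6.58 and 6.86 in menin-null mESCs, 11.32 and 11.23 in WT PILECs, and 11.57 and 11.06 in menin-null PILECs. Col1a2 read 6.68 and 6.97 in WT mESCs, 6.67 and 6.98 in menin-null mESCs, 12.56 and 12.79 in WT PILECs, and 12.11 and 11.69 in menin-null PILECs. Both genes rose in both genotypes with no overlap of PILEC and mESC arrays. The rise of Col1a1 was 4.69 in WT and 4.60 in menin-null cells, and that of Col1a2 was 5.85 and 5.07 (SE 0.17 to 0.18). The dimmest probe set of Col1a2, at means under 7 in all groups, rose by 2.46 and 1.58.

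Type V collagen starts and limits the growth of type I fibrils. Col5a1 was already at 8.03 ± 0.02 (SD, n = 2) in WT mESCs and rose by 2.94, and by 2.91 in menin-null cells. Col5a2 rose by 3.03 and 2.71. The smallest rise among the named fibrillar genes that rose was that of Col2a1, the chain of cartilage collagen, at 1.0 and 1.42. Its values were 8.74 and 8.74 in WT PILECs and 8.96 and 9.07 in menin-null PILECs, all above the 7.44 to 7.76 of the mESC arrays. Col5a3, the less widely expressed type V chain, stayed under 7 in every group and differed by -0.05 in WT cells (95% interval -0.30 to 0.20), with an adjusted p of 0.72, and fell by 0.57 in menin-null cells. Its other probe set had 0.11 and 0.03, neither called.

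The chains of type VI collagen, which form beaded microfibrils around cells, rose as a set of 3. Col6a1 read 5.95 and 5.37 in WT mESCs and 10.10 and 10.21 in WT PILECs, and 5.53 and 5.99 in menin-null mESCs and 10.70 and 10.36 in menin-null PILECs. The rises in WT and menin-null cells were 4.49 and 4.77 for Col6a1, 3.71 and 3.93 for Col6a2, and 4.42 and 4.28 for Col6a3, with SE of 0.16 to 0.24. Each was at least 3.71, and the PILEC and mESC arrays did not overlap for any of the 3. Col6a4, which codes for a chain of the same family and was chosen after its values were seen, differed the other way, with a fall of 0.90 in WT cells and a difference of -0.33 that was not called in menin-null cells. Its other probe set had -0.09 and -0.19, neither called. Col26a1 rose by 4.12 and 4.05 on its brightest probe set. On its other probe set, at means of 4.90 to 5.25, the differences were 0.35 and 0.15 with adjusted p of 0.14 and 0.49.

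Among the FACIT genes, whose products lie on the surface of fibrils, 5 of 9 rose and 1 fell in WT cells, and 4 rose in menin-null cells. Col14a1, the chain of type XIV collagen of dense connective tissue, rose by 2.71 in WT and by 1.67 in menin-null cells. On its second probe set, at means under 7, its menin-null rise was 0.20 with an adjusted p of 0.43. Of the minor type IV chains Col4a6 rose by 1.12 and 0.56, and Col4a5 by 1.75 and 1.24. The other probe set of Col4a5 rose by 4.64 and 3.22. Mutation of COL4A5 causes Alport syndrome in people.

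A smaller group moved down. Col18a1 codes for the core of a basement membrane proteoglycan from which endostatin is cut. It read 11.78 and 11.80 in WT mESCs, 11.83 and 11.84 in menin-null mESCs, 9.57 and 9.63 in WT PILECs, and 9.71 and 9.42 in menin-null PILECs. All PILEC arrays were below all mESC arrays. The fall was 2.19 (SE 0.11, 4.56-fold) in WT and 2.27 (4.82-fold) in menin-null cells, and both of its probe sets fell. Col13a1 and Col17a1, which code for collagens that span the cell membrane, also fell in both genotypes. Col13a1 fell by 0.54 in WT and by 1.31 in menin-null cells, the latter from a higher mESC level. Col17a1, chosen after its values were seen, fell by 0.79 and 0.81 with means under 7 throughout.

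Fibroblast and mesenchyme markers also rose on differentiation, as did those of some other cell types. The summed signal of the 17 markers lay between 2362 and 2534 over the mESC arrays, between 19660 and 22760 in WT PILECs and between 16060 and 21540 in menin-null PILECs. Dcn and Postn, both matrix genes of fibroblasts, rose by 6.34 and 5.27 in WT cells. In mESCs Dcn had a mean of 6.57 in WT and 6.05 in menin-null cells, Postn a mean under 7 in both, and 3 of 17 markers reached 7. Markers of other cell types were also called in WT cells, given here as rises and falls. These were 10 and 0 of 10 neuron, 8 and 0 of 9 striated muscle and 6 and 0 of 9 glia markers. Cartilage had 4 and 5 of 12, parietal endoderm 5 and 7 of 12 and endothelium 3 and 3 of 8. Smooth muscle had 1 and 3 of 8, bone 0 and 2 of 4 and epithelium 0 and 7 of 7. The part of any of these cell types in the collagen levels was not tested.

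The machinery that makes and finishes collagen was counted from lists, and the genes named from these lists for differentiation were chosen after their values were seen. Over all genes 27.8% rose and 35.3% fell in WT cells, and 28.9% rose and 36.1% fell in menin-null cells. Of 19 genes for chain folding and modification 14 rose and 1 fell in WT cells, and 14 rose and 2 fell in menin-null cells. Serpinh1, the collagen chaperone Hsp47, rose by 2.01 in WT cells, and P4ha1, a prolyl hydroxylase subunit, by 1.58. Of 10 genes for propeptide removal and crosslinking 5 rose and 2 fell in both genotypes. Bmp1, the procollagen C-proteinase, and Lox, which starts crosslinks, rose by 1.81 and 1.83 in WT cells. Pcolce2, an enhancer of that proteinase, went the other way, with means of 9.77 in WT mESCs and 4.97 in WT PILECs, and Pcolce fell by 0.93. Of 12 fibril-associated proteoglycans and organisers 8 rose and 1 fell in both genotypes. Of 10 genes of collagen breakdown 6 rose and 2 fell in WT cells, and 7 rose and 2 fell in menin-null cells. Of 9 collagen receptor genes 3 rose in WT and 4 in menin-null cells, and none fell. The 3 of 9 lie near the 27.8% over all genes. Mrc2, a receptor that takes up collagen fragments, rose by 2.81 in WT cells, and Timp1, an inhibitor of matrix metalloproteinases, fell by 3.69.

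The next comparison asks what changed in PILECs without menin. In menin-null PILECs 4 of the 40 collagen genes fell against WT PILECs and none rose, by limma with 9 members at an unadjusted p under 0.05. Over all genes 6.68% were called, 4.42% lower and 2.26% higher. The median difference of the 40 members was 0.00, with 20 above zero and 20 below. The genes that fell belong to 4 classes: FACIT, type VIII, fibrillar and type IV.

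**Figure D2:**
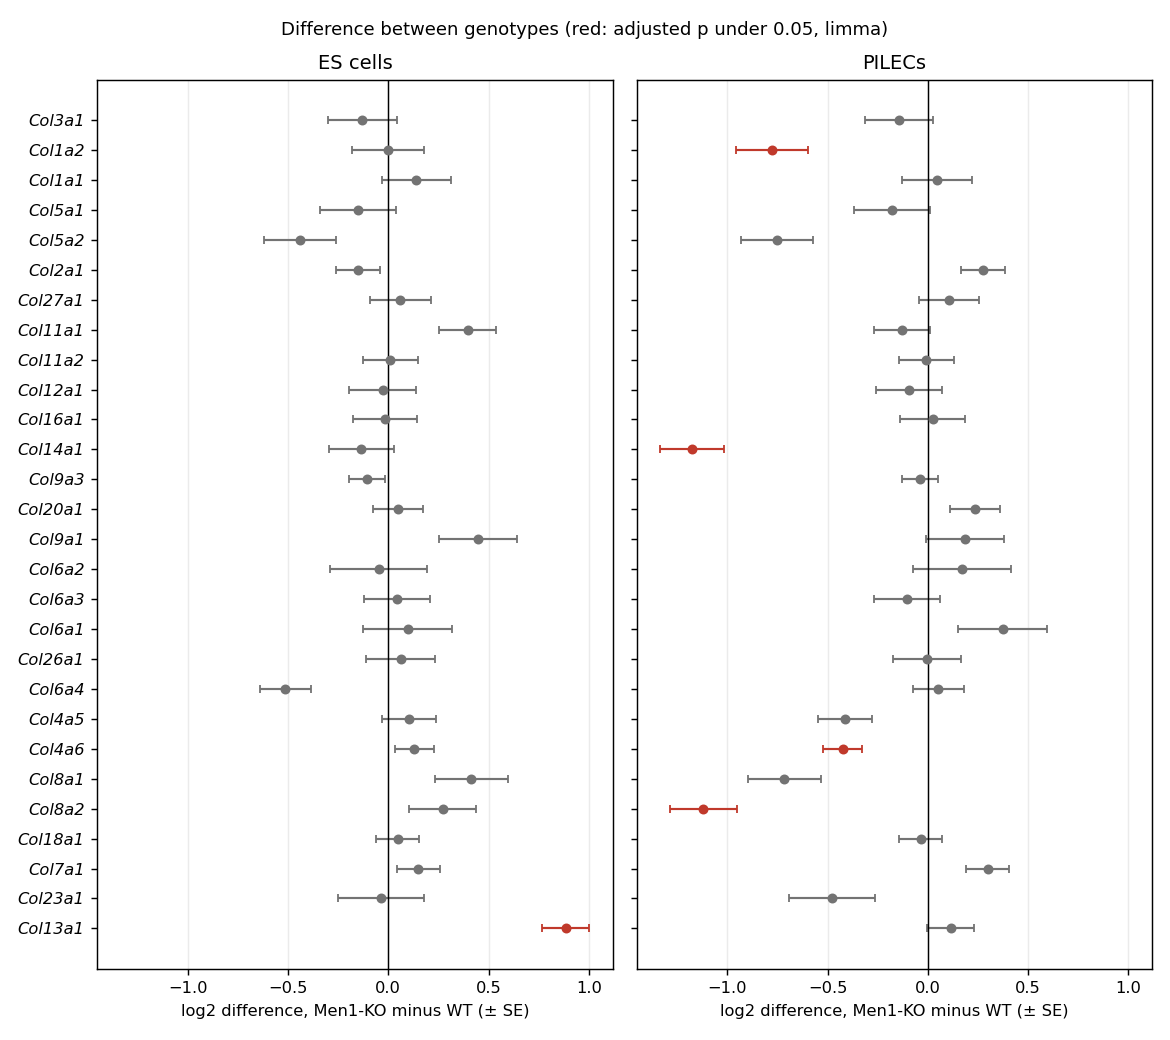
Difference between menin-null and WT cells (log2, x axis, with SE) for the 28 collagen genes with a group mean of 7 or more, in mESCs and in PILECs. Red points passed an adjusted p under 0.05, which were Col13a1 in mESCs and Col14a1, Col8a2, Col1a2 and Col4a6 in PILECs.

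Col14a1 read 7.86 and 7.88 in WT PILECs and 6.92 and 6.47 in menin-null PILECs. The arrays of the genotypes did not overlap, and the menin-null arrays lay farther apart from each other than the WT arrays. Over all genes 30% had both menin-null PILEC arrays below both WT arrays, and 24.7% had them above. Col14a1 fell by 1.17 (SE 0.16, 2.26-fold) with an adjusted p of 0.00808. In mESCs its difference was -0.13, at levels of 4.91 to 5.27. A second probe set, at a lower level, had -0.78 with an adjusted p of 0.08 over single probe sets.

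Col8a2 codes for a chain of type VIII collagen, a short network former of Descemet's membrane and vessel walls. It read 6.85 and 7.32 in WT PILECs and 6.11 and 5.83 in menin-null PILECs, and 5.98 and 5.96 in WT mESCs and 6.13 and 6.36 in menin-null mESCs. WT PILECs stood above the other 3 groups, and menin-null PILECs were within the range of the mESCs or just under it. The fall in PILECs was 1.12 (SE 0.17, 2.17-fold) with an adjusted p of 0.0114. Its partner Col8a1, chosen after its values were seen, read 7.41 and 7.78 in WT and 6.85 and 6.91 in menin-null PILECs, a difference of -0.72 with an adjusted p of 0.0595. Its other probe sets lay at means under 7. Tested over single probe sets, 1 of them went from 5.26 to 4.28 and fell by 0.98 with an adjusted p of 0.00772, and the other had -0.01.

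Col1a2 read 12.56 and 12.79 in WT and 12.11 and 11.69 in menin-null PILECs with no overlap, and fell by 0.78 (SE 0.18, 1.71-fold) with an adjusted p of 0.0449. Col4a6 read 7.01 and 7.11 against 6.61 and 6.66, and fell by 0.43 (SE 0.10, 1.34-fold) with an adjusted p of 0.042. Both calls lie close to the threshold. Col5a2, next to them in rank, read 9.51 and 9.75 against 9.0 and 8.76, a difference of -0.75 with an adjusted p of 0.0504.

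**Figure D3:**
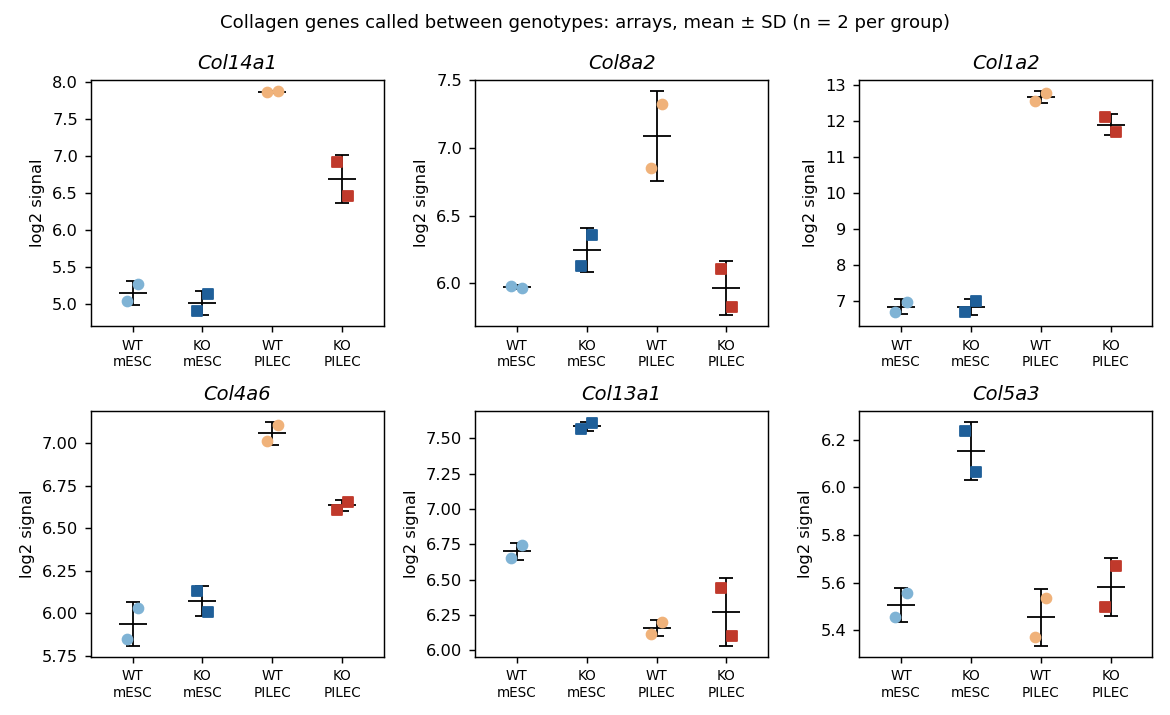
Log2 signal of the 6 collagen genes called between genotypes, with 1 point per array and mean ± SD of 2 arrays per group. Axes differ between panels and do not start at 0. Menin-null PILECs sit below WT PILECs for Col14a1, Col8a2, Col1a2 and Col4a6, and menin-null mESCs above WT mESCs for Col13a1 and Col5a3.

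The remaining named members were not called in PILECs. The difference was 0.04 for Col1a1 (95% interval -0.36 to 0.45), -0.14 for Col3a1 (-0.54 to 0.25), -0.18 for Col5a1 (-0.62 to 0.26) and 0.27 for Col2a1 (0.02 to 0.53). It was 0.37 for Col6a1 (-0.14 to 0.89), 0.17 for Col6a2 (-0.39 to 0.73) and -0.10 for Col6a3 (-0.48 to 0.28). Col18a1 and Col26a1 had differences of -0.04 and 0.00, Col13a1 of 0.11 and Col5a3 of 0.13. Col4a1 and Col4a2, the basement membrane pair, rose by 1.51 and 1.78 in the same arrays, with adjusted p of 0.00243 and 0.00132.

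The number of calls in PILECs depended on single arrays. It was 1 without the first WT PILEC array, with 1.02% of all genes called, and 0 without the second (limma, 7 members at an unadjusted p under 0.05), with 0.786%. It was 2 without the first menin-null PILEC array and 1 without the second, with 2.48% and 2.22% of all genes called. Leaving out either WT mESC array, which enters through the shared spread, gave 2 members and 3.3% of all genes, and leaving out either menin-null mESC array gave 6 members and 8.92%. The share over all genes thus moved with the members' count. In these 8 fits Col14a1 ranged from -1.40 to -0.95 and was not called without either WT PILEC array, and Col8a2 ranged from -1.35 to -0.89 and was not called without the second WT or the second menin-null PILEC array. Col1a2 and Col4a6 were called only without a menin-null mESC array. Over the 40 members the second menin-null PILEC array differed from the first by a median of -0.26, against 0.08 between the WT PILEC arrays.

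Several collagen genes have more than 1 probe set, and these did not give the same difference in PILECs. On all 34945 probe sets, 8 of the 79 member probe sets fell, in 8 genes, and none rose (limma), against 3.87% of all probe sets called. Col4a6 was not among them, with an adjusted p of 0.0618 at this larger number of tests. For Col1a1 the brightest probe set had 0.04, while the other went from 10.41 to 9.69 and fell by 0.72 (adjusted p 0.0253). For Col1a2 the second probe set fell by 1.13 (adjusted p 0.0167), while the brightest had -0.78 and an adjusted p of 0.0564 here. For Col4a5 the brightest over 8 arrays had -0.41, while the other, higher in PILECs, went from 9.14 to 7.74 and fell by 1.39 (adjusted p 0.00295). The second probe set of Col5a2 fell by 0.97 (adjusted p 0.0384), and that of Col25a1, a transmembrane collagen, by 0.62 (adjusted p 0.0246) while its brightest had 0.01. The remaining 3 of the 8 were the probe set of Col8a1 given above and the brightest of Col14a1 and Col8a2. That of Col3a1 had -0.54 against -0.14, that of Col11a1 -0.67 against -0.13, and that of Col12a1 -0.80 against -0.09, none of them called.

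Of the 12 members with at least 2 probe sets at a group mean of 7 or more, the brightest had the highest difference in 9. This count, and the naming of Col4a5, Col11a1, Col12a1 and Col25a1, came after the values were seen. Some dimmer probe sets reached 7 in WT PILECs alone. That of Col5a2 had means of 7.40 in WT and 6.42 in menin-null PILECs, and that of Col11a1 7.62 and 6.95. The limit thus favoured probe sets lower in menin-null PILECs, so the count of 9 describes these probe sets only. With the mean of all probe sets of each gene in place of the brightest, 7 members fell in menin-null PILECs, against 5.62% of all genes called. What sets the probe sets apart was not tested.

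**Figure D4:**
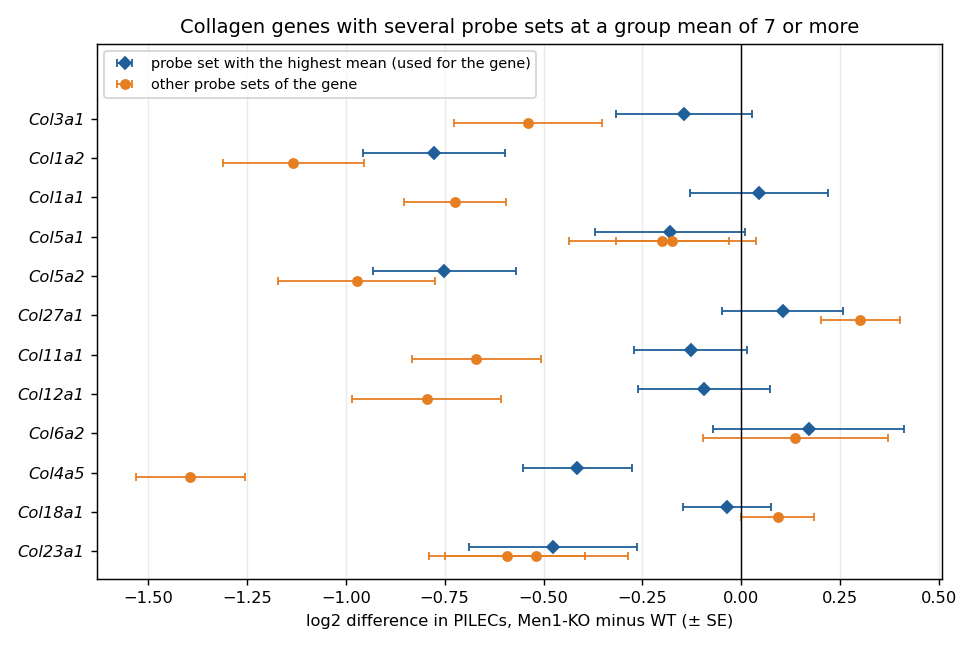
Difference between menin-null and WT PILECs (log2, x axis, with SE) for each probe set of the 12 collagen genes that had several at a group mean of 7 or more. Diamonds are the brightest probe set of a gene, circles the others, and for Col1a1, Col4a5, Col11a1 and Col12a1 the circles lie well below the diamonds. Some circles, as those of Col5a2 and Col11a1, reached 7 in WT PILECs alone.

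Genes that act on collagen were counted between genotypes in PILECs against the same 6.68% of all genes called. Of 19 folding and modification genes Plod3, a lysyl hydroxylase and glycosyltransferase, rose by 0.41 and none fell. None of 10 genes for propeptide removal and crosslinking was called by limma, with 2 at an unadjusted p under 0.05. Of 12 fibril-associated genes 2 fell. Aspn (asporin) went from a mean of 6.41 to 4.92, a fall of 1.49 with an adjusted p of 0.000659, and Lum (lumican), which spaces collagen fibrils, fell by 1.07 with an adjusted p of 0.0477. Of 10 breakdown genes Mmp8, a neutrophil collagenase, rose by 0.55 at means under 7, and none of 9 receptor genes was called, with 1 at an unadjusted p under 0.05.

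Markers of other cell types differed between the same PILEC arrays, where 4.42% of all genes fell and 2.26% rose. Of 17 fibroblast and mesenchyme markers 3 fell, Prrx1 by 0.99, Lum by 1.07 and Twist1 by 0.34, and Thy1 rose by 1.01. Of 9 striated muscle markers 7 fell, with Actc1 down by 2.78 and Myog by 2.29, and the summed signal of the list was 8685 to 10770 in WT and 2205 to 3148 in menin-null PILECs. Of 12 parietal endoderm markers 7 rose, Lama1 by 2.19 among them, with summed signals of 14750 to 16640 and of 21320 to 27890. Of 7 epithelium markers 5 rose and 1 fell, of 9 glia markers 4 rose, and of 10 pluripotency markers 5 fell. Of the 17 islet markers none was called (limma, 6 at an unadjusted p under 0.05). The part of these cell types in the collagen differences was not tested.

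In mESCs 2 of the 40 members were higher without menin and none fell (limma, 5 at an unadjusted p under 0.05). Over all 18193 genes 3.64% were called, 1.29% higher and 2.36% lower. The members' median difference was 0.01. Col13a1, whose product spans the membrane and is known from the neuromuscular junction, read 6.66 and 6.74 in WT and 7.56 and 7.61 in menin-null mESCs. The arrays did not overlap and differed by little within a genotype. Over all genes 24.1% had both menin-null mESC arrays above both WT arrays, and 24.9% had them below. Col13a1 rose by 0.89 (SE 0.12, 1.85-fold) with an adjusted p of 0.0104. Col5a3 read 5.45 and 5.55 in WT and 6.24 and 6.07 in menin-null mESCs, and rose by 0.65 (SE 0.11) with an adjusted p of 0.0215, at a level under 7 in every group.

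Neither call was made without the first or without the second WT mESC array, where 0 members were called by limma and 6 and 4 had an unadjusted p under 0.05, with 0.242% and 0.363% of all genes called. Col5a3 was also not called without the first menin-null mESC array or without either WT PILEC array. When 1 array was left out, the difference of Col13a1 ranged from 0.84 to 0.93 and that of Col5a3 from 0.56 to 0.74. On the 4 mESC arrays alone the count of called members was also 0, with 3 members at an unadjusted p under 0.05 and 0.066% of all genes called. The mean of the probe sets of Col5a3 had a difference of 0.34 with an adjusted p of 0.084. Col4a1 and Col4a2 had differences of -0.48 and -0.56 in mESCs, neither called. Among the genes that act on collagen Plod1, a lysyl hydroxylase, rose by 0.69 with an adjusted p of 0.0196, and no other member of the 5 lists was called (limma, with 1, 1, 2 and 3 genes of the other lists at an unadjusted p under 0.05).

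The last comparison asks whether the effect of menin loss differed between PILECs and mESCs. One collagen gene passed, against 3.06% of all genes called and 1.57% called lower, with 11 members at an unadjusted p under 0.05. Col8a2 had a difference of 0.27 in mESCs and of -1.12 in PILECs, so that the effect in PILECs was lower by 1.39 (SE 0.24) with an adjusted p of 0.0272. This call was lost without either WT mESC array, the second WT PILEC array or either menin-null PILEC array, with adjusted p of 0.0563 to 0.107, and with no moderation, with an adjusted p of 0.144. Col14a1, Col13a1 and Col8a1 had differences between the effects of -1.04, -0.77 and -1.13 and adjusted p of 0.0556, 0.0544 and 0.0637. Col4a6, Col1a2 and Col5a3 had -0.56, -0.78 and -0.52, none of them called. For Col4a1 and Col4a2 the difference between the effects was 1.99 and 2.35, with adjusted p of 0.00536 and 0.00272.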

How the data were processed

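RNA from 2 independent cultures of each of 4 groups was hybridized to Affymetrix mouse genome expression arrays. The authors deposited log2 values per probe set. The submitters' notes name RMA and Partek, whereas the study's methods name MAS 5.0 software, and versions are not given in the sources used here. No depth applies to arrays, and their number limits the precision. Symbols came from the platform annotation. Of 45101 probe sets 34945 had 1 symbol, 932 several, 9160 none and 64 were controls. All 40 members matched RefSeq.

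Each gene was read from the probe set with the highest mean. The 4 group means were fitted to all 8 arrays with limma 3.58.1 (R 4.3.3) without covariates, and p-values were adjusted by Benjamini-Hochberg over 18193 genes. The fit had 4 residual and 3.72 prior degrees of freedom and was tested on simulated data. Figures were drawn with matplotlib 3.10.9. Named with values were members called between genotypes or in the difference of effects, members with a group mean of at least 9, and Col4a1 and Col4a2, and up to 4 called genes per pathway or marker list. Other members were named after their values were seen. Members and lists were chosen with earlier results of these data known. Of 42 chains listed by class, Col6a6 and Col28a1 were not analysed here. The pathway and marker lists whose calls between genotypes are not all given above were counted too. In PILECs without menin the calls were, in the order of rises and falls, 1 and 0 of 12 cartilage, 0 and 0 of 4 bone, 0 and 0 of 8 smooth muscle, 1 and 0 of 10 neuron, 4 and 0 of 9 glia, 0 and 0 of 8 endothelium, 5 and 1 of 7 epithelium and 0 and 5 of 10 pluripotency markers. In mESCs they were 1 and 0 of 17 fibroblast, 0 and 2 of 12 parietal endoderm, 2 and 2 of 10 neuron, 0 and 4 of 7 epithelium, 0 and 1 of 8 smooth muscle and 0 and 1 of 8 endothelium markers, and 0 in the other lists.

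Alternatives were the mean of all probe sets, leaving out probe sets with the suffix s, x or a, quantile normalization, a minimum group mean of 7, an intensity trend, no moderation, the arrays compared alone, a threshold of 2-fold with p under 0.005, the replicate number as a block, and leaving out each array.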

Additional observations from a re-analysis of the deposited data

Results flagged for a closer look

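Col8a2 had effects of menin loss that were called different between the cell types, by the interaction term of the limma fit over all genes. It was the only call among the 40 members, against 3.06% of all genes called. Its mean reached 7 in WT PILECs alone (7.09). The effect was -1.12 in PILECs and 0.27 in mESCs, the difference between them was -1.39 (SE 0.24), and the adjusted p was 0.0272. With no moderation the adjusted p was 0.144. When 1 array was left out it was 0.0563 to 0.107 in 5 of 8 fits, those without either WT mESC array, the second WT PILEC array or either menin-null PILEC array.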

How the results depend on the processing

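The main counts of called collagen genes were 2 (menin-null against WT in mESCs), 4 (in PILECs), 30 and 26 (PILECs against mESCs in WT and menin-null cells) and 1 (difference of the effects), with 3.64, 6.68, 63.1, 65 and 3.06% of all genes called. With the mean of all probe sets the first, second and last were 1, 7 and 5 (3.07, 5.62 and 3.03% of all genes). Without those of suffix s, x or a the last was 2 of 36 (2.78%), after quantile normalization 3 (3.8%) and with an intensity trend 5 (7.93%). Without those of suffix s, x or a the second was 4 of 36 (5.36%), with 1 member higher and 3 lower. The PILEC calls of Col14a1 and Col4a6 were lost there, with adjusted p of 0.0689 and 0.0501 by limma. With a minimum group mean of 7 the first was 1 and the last 5 of 28 (7.45 and 7.25%). Col8a2, Col4a6, Col14a1 and Col8a1 reached 7 in WT PILECs alone, and Col13a1 in menin-null mESCs alone. The minimum thus favoured genes that differ between groups, and its counts are no support for the calls. With no moderation the first, second and last were 0, with 4, 6 and 6 members at an unadjusted p under 0.05 and 0.357, 1.96 and 0.258% of all genes called, and with the mESC arrays alone the first was 0 (0.066%). At the threshold of 2-fold and p under 0.005 the 5 counts were 0, 2, 18, 16 and 3, against 0.423, 0.83, 30.4, 31.6 and 1.36%. Leaving out 1 array gave ranges of 0 to 3, 0 to 6, 24 to 30, 24 to 28 and 0 to 3.

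With 2 arrays a group, whether the replicate numbers pair the samples could not be decided. Same-numbered arrays of WT and menin-null cells deviated with a correlation of -0.28 in mESCs and -0.23 in PILECs, those of mESCs and PILECs with 0.06 in WT and 0.21 in menin-null cells, and the WT mESCs with menin-null PILECs and the reverse with -0.11 and -0.06. With the replicate block 2, 2, 29, 26 and 1 members were called (2.25, 4.03, 61.9, 64 and 1.57% of all genes), the PILEC calls of Col1a2 and Col4a6 being lost.

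Of 699 values of named genes under the other settings 643 kept their direction and call, 28 lost a call, 18 gained one and 10 turned sign. None of the 10 was called. With the mean of all probe sets the differences in mESCs were -0.0822 for Col18a1, -0.0068 for Col1a1 and 0.23 for Col1a2, those in PILECs 0.0288 for Col18a1 and -0.34 for Col1a1, and that of Col5a3 on WT differentiation 0.028. Without those of suffix s, x or a they were 0.15 for Col1a2 and 0.0022 for Col3a1 in mESCs. After quantile normalization they were 0.0479 for Col18a1 and 0.0758 for Col26a1 in PILECs. When 1 array was left out, uncalled differences that changed sign ranged in mESCs from -0.0019 to 0.28 for Col1a1, -0.15 to 0.15 for Col1a2, -0.0697 to 0.19 for Col26a1, -0.30 to 0.001 for Col2a1, -0.39 to 0.13 for Col3a1, -0.19 to 0.39 for Col6a1, -0.36 to 0.27 for Col6a2 and -0.16 to 0.25 for Col6a3. In PILECs they ranged from -0.0547 to 0.28 for Col13a1, -0.18 to 0.11 for Col18a1, -0.21 to 0.30 for Col1a1, -0.21 to 0.20 for Col26a1, -0.29 to 0.0048 for Col3a1, -0.48 to 0.12 for Col5a1, -0.10 to 0.44 for Col6a2 and -0.25 to 0.0448 for Col6a3. On WT differentiation Col5a3 ranged from -0.13 to 0.0331. The cause was not tested. With 2 arrays a group and no detection calls, differences of genes under 7 are limited by background.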
